A study of Danio rerio with 6 samples.

Results

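Transcripts of 3 phosphatase genes were followed in wild-type zebrafish embryos and in MZdgcr8 embryos, which lack the microRNA processing factor Dgcr8. The genes were the paralogous tyrosine phosphatase genes ptpn4a (ENSDARG00000000631) and ptpn4b (ENSDARG00000000183), and the inositol phosphatase gene inppl1b (ENSDARG00000001442). They were found by symbol among the 99 genes of the table used here, and all 3 were among the 67 genes that reached a mean of 1 FPKM (fragments divided by transcript length and by the mapped fragments of the library) and were tested. They were picked because their levels were higher in MZdgcr8 replicates 1 and 2 than in wild type. The genotype values of those replicates are therefore a description and carry no test. Messenger RNA was sequenced from whole embryos of strain AB at 4.5 hours post fertilization (30% epiboly), with 3 libraries from wild-type embryos and 3 from MZdgcr8 embryos, each made from a pool of 50 embryos. MZdgcr8 embryos have neither maternal nor zygotic Dgcr8, and the allele was not named in the labels.

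Dgcr8 is the RNA-binding partner of the nuclease Drosha, and together they cut primary microRNA transcripts into precursors. In the early zebrafish embryo the most abundant microRNA family made this way promotes the clearance of many maternal messenger RNAs as zygotic transcription starts. PTPN4, the mammalian protein that ptpn4a and ptpn4b are named after, is a non-receptor tyrosine phosphatase that carries a FERM domain, which binds membrane and cytoskeletal partners, a PDZ domain and a catalytic phosphatase domain. The mammalian INPPL1 protein, also called SHIP2, removes a phosphate from phosphatidylinositol trisphosphate, the lipid that phosphoinositide kinases make downstream of growth factor receptors. Tyrosine phosphatases and inositol phosphatases can both act in receptor signalling, the first on proteins and the second on membrane lipids.

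The annotation of the table follows these roles. Both ptpn4a and ptpn4b carry the terms for protein tyrosine phosphatase activity, cytoskeletal protein binding and cytoplasm, and 10 terms in all are shared between them. Of the 11 terms of ptpn4b the one that ptpn4a lacks is "extrinsic component of membrane". The gene inppl1b carries 2 terms, phosphatidylinositol dephosphorylation and hydrolase activity, and hydrolase activity is the 1 term that all 3 genes share. No other gene of the 99 has a term for dephosphorylation. The table lists 3 transcripts for ptpn4a, 3 for ptpn4b and 2 for inppl1b, without separate values. In RefSeq (assembly GRCz12tu) ptpn4a lies between epb41l5 and tmem177, ptpn4b between krt96 and mrasb, and inppl1b between crhr2 and arr3b among protein-coding genes, and 0 of these neighbours are in the table. RefSeq also gives ptpn4a as an older name of ptpn4b. The paralogs were told apart by their symbols in the table, and their RefSeq neighbours were found by current symbol. The gene name source gives PTPN4 for both Ensembl identifiers, so whether both sources use the a and b names alike was not checked.

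Wild type replicate 3 was the shallowest library (relative depth 0.797) and MZdgcr8 replicate 2 the deepest (1.14), and the counts of these phosphatase genes ran from 150 to 7664 per library. No check of the genotype labels by the level of dgcr8 itself was possible, since the table used here did not hold that gene. Of 37 marker genes listed for embryonic cell types, 2 were in the table: 1 of 10 for the enveloping layer, the outermost cell layer, and 1 of 5 for the yolk syncytial layer. Both replicate 3 libraries stood apart from replicates 1 and 2 of their own genotype, and the genotype differences and the paralog ratio below are given with and without them. The keratin gene krt97, the enveloping layer marker, was at 302 FPKM in wild type replicate 3 and 331 FPKM in MZdgcr8 replicate 3, against 145, 144, 31.1 and 26.9 FPKM in wild type replicates 1 and 2 and MZdgcr8 replicates 1 and 2. The iron exporter gene slc40a1, the yolk syncytial layer marker, was between 0.0814 and 0.371 FPKM in all 6 libraries. That is below the minimum of 1 FPKM, so the gene was not tested and nothing is read from it about that layer. The part of enveloping layer RNA, and of whatever sets replicate 3 apart, in the results below was not tested. In these bulk libraries, fewer cells of a type and less RNA per cell cannot be told apart.

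The paralog ptpn4b had the highest mean level of the 3 genes in both genotypes and was the only one of them whose genotypes did not overlap. Its level was 5.67, 7.72 and 1.50 FPKM in wild type replicates 1, 2 and 3, and 18.9, 18.1 and 7.94 FPKM in MZdgcr8 replicates 1, 2 and 3. The lowest MZdgcr8 library, replicate 3, lay just above the highest wild-type library, replicate 2. The wild-type mean was 4.96 ± 3.17 FPKM and the MZdgcr8 mean 15.0 ± 6.10 FPKM (SD, n = 3 each), a 3.02-fold difference in the edgeR fit (log2 1.59 ± 0.67 SE). Of the tested genes, 8.96% had higher, non-overlapping MZdgcr8 values, and nothing is read from this share because the gene was picked on the same contrast.

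The level of ptpn4a was 4.05, 6.42 and 2.06 FPKM in wild type replicates 1, 2 and 3, and 15.2, 14.7 and 3.05 FPKM in MZdgcr8 replicates 1, 2 and 3. MZdgcr8 replicates 1 and 2 lay above all wild-type libraries, and MZdgcr8 replicate 3 lay within the wild-type range, so the groups overlapped. The mean was 4.18 ± 2.18 FPKM over wild-type libraries and 11.0 ± 6.90 FPKM over MZdgcr8 libraries (SD, n = 3 each), a 2.63-fold difference (log2 1.40 ± 0.71 SE). Leaving out both replicate 3 libraries took the log2 difference to 1.52 for ptpn4a and 1.47 for ptpn4b. Only the replicates on which the genes were picked remain there, so no stability is read from these values. Without wild type replicate 3 alone the difference was 1.07 for ptpn4a and 1.16 for ptpn4b. Without MZdgcr8 replicate 3 alone it was 1.84 and 1.90.

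The inositol phosphatase gene inppl1b had the lowest mean level of the 3 genes and the widest fold range among MZdgcr8 libraries, though not the largest SD. Levels were 2.60, 2.69 and 1.51 FPKM in wild type replicates 1, 2 and 3, and at 4.87, 4.80 and 0.538 FPKM in MZdgcr8 replicates 1, 2 and 3. MZdgcr8 libraries therefore held both the highest and the lowest values of this gene, with a 9.06-fold range, against 1.78-fold in wild type. The mean was 2.26 ± 0.659 FPKM over wild-type libraries and 3.40 ± 2.48 FPKM over MZdgcr8 libraries (SD, n = 3 each), and the log2 difference of 0.59 was smaller than its SE of 0.79. Leaving out MZdgcr8 replicate 1 or 2 took it to 0.24 or 0.26. Without MZdgcr8 replicate 3 it was 1.09, and without both replicate 3 libraries it was 0.87.

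**Figure D1:**
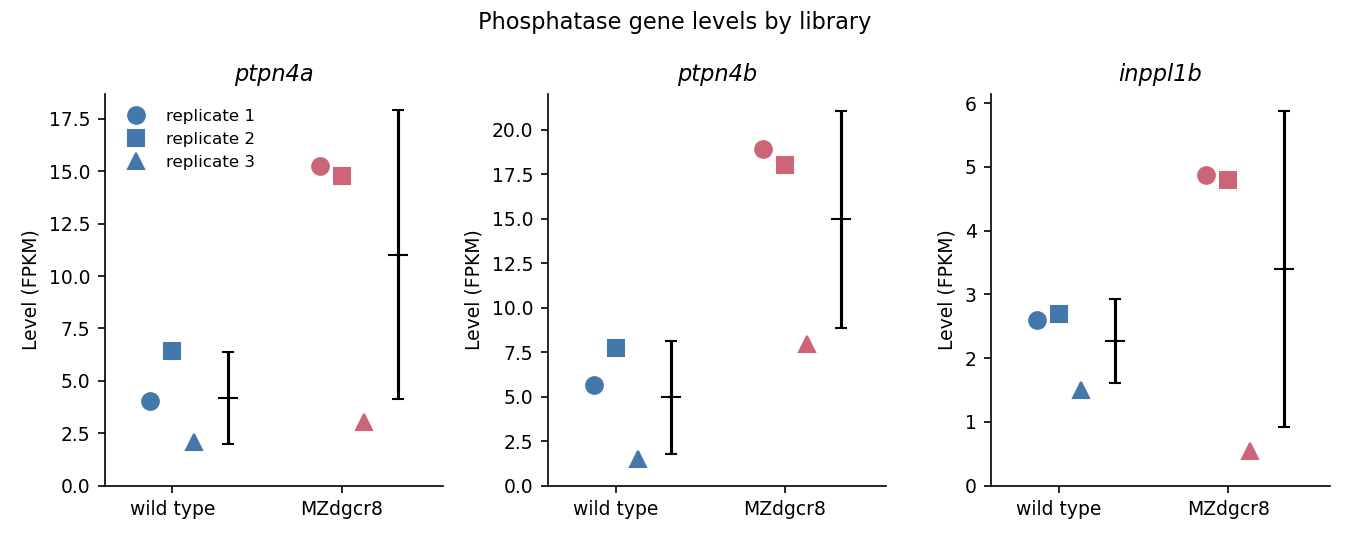
Level of ptpn4a, ptpn4b and inppl1b in FPKM (linear axes from 0) in each library, with wild type in blue and MZdgcr8 in red; circles, squares and triangles are replicates 1, 2 and 3, and the black bar is the mean ± SD of 3 libraries. MZdgcr8 replicates 1 and 2 lie above every wild-type library for all 3 genes, while MZdgcr8 replicate 3 does so only for ptpn4b, at 7.94 FPKM.

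Over the whole table the edgeR quasi-likelihood fit without a block called 0 of 67 genes for genotype (0%), with 5 genes at an unadjusted p under 0.05, and DESeq2 and limma also called 0. With the replicate number as a block, 7.46% of genes were called higher and 0 lower (percent of the 67 tested genes), and 1 of the 3 phosphatase genes, ptpn4b, was among those higher. The blocked fit called 5 genes in edgeR, 5 in limma and 14 in DESeq2. The log2 difference of ptpn4b in the blocked edgeR fit was 1.78 ± 0.26 SE, against 1.23 ± 0.29 for ptpn4a and 0.14 ± 0.58 for inppl1b. In the fit of replicates 1 and 2 alone, 64.2% of genes were called, and 23.9% were called higher. Nothing is read from these calls, since the fits include the replicates on which the genes were picked.

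The genes were picked for a rise in MZdgcr8 replicates 1 and 2, with earlier results of these data known. Replicate 3 is therefore no independent check, and with 1 library per genotype it allows values but no test. There the differences of the 3 genes ran from well above to well below 0. The level of ptpn4b was 5.30-fold higher in MZdgcr8 than in wild type (log2 2.41), a larger difference than in replicate 1 (3.34-fold) or replicate 2 (2.34-fold), and ranked 4 from the highest among 67 genes. For ptpn4a it was 1.48-fold higher (log2 0.56, rank 9), against 3.76-fold and 2.30-fold in replicates 1 and 2. For inppl1b it was 2.80-fold lower (log2 -1.49, rank 64), although in replicates 1 and 2 it had been 1.87-fold and 1.79-fold higher. The median log2 difference over the 67 genes was -0.13, -0.12 and -0.16 in replicates 1, 2 and 3. Setting the library medians equal kept these directions in replicate 3. It lowered each log2 value, to 2.06 for ptpn4b, 0.22 for ptpn4a and -1.83 for inppl1b. The library medians are another measure than the median log2 difference over genes, which would have raised the values.

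**Figure D2:**
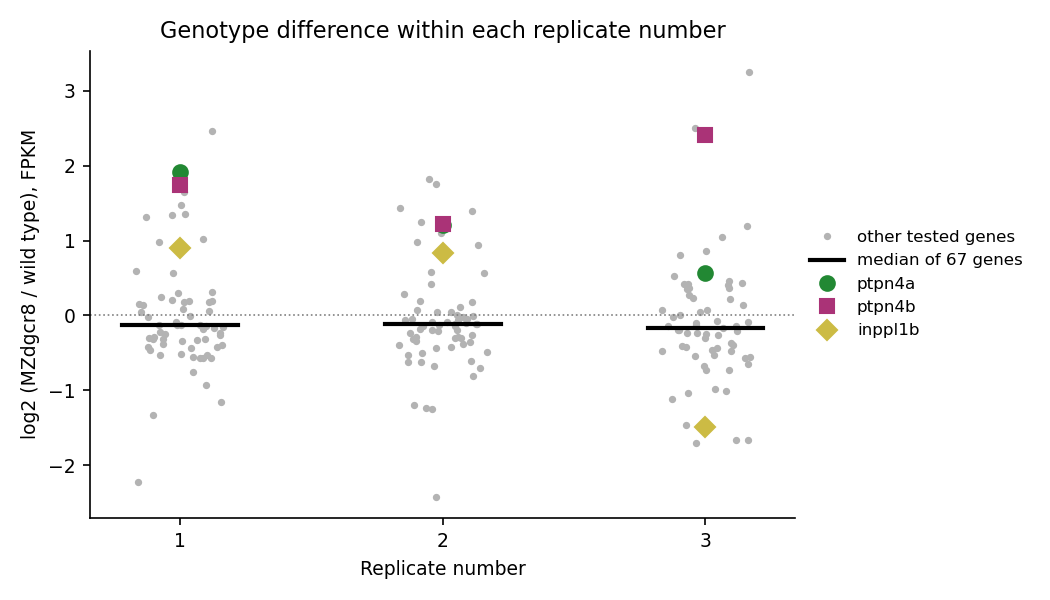
Log2 difference in FPKM between MZdgcr8 and wild type within each replicate number, 1 point per gene; grey points are the other tested genes, black bars the median of 67 genes, and coloured circles, squares and diamonds are ptpn4a, ptpn4b and inppl1b. The 3 coloured points lie above 0 in replicates 1 and 2, where they were picked, and in replicate 3 they spread from 2.41 (ptpn4b) to -1.49 (inppl1b).

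The 3 genes also differed in size of change when replicate 3 was compared with replicates 1 and 2 of its own genotype. That comparison uses the same replicate 3 libraries. All 3 genes were lower in replicate 3 of both genotypes, as were 51 of 67 genes in wild type and 49 of 67 in MZdgcr8. In wild type the difference was largest for ptpn4b, with a mean of 6.69 FPKM in replicates 1 and 2 and 1.50 FPKM in replicate 3 (4.47-fold lower), followed by ptpn4a (2.54-fold) and inppl1b (1.76-fold). In MZdgcr8 the order was the opposite. There inppl1b differed most, at 4.83 and 0.538 FPKM (8.99-fold lower), then ptpn4a (4.91-fold) and ptpn4b (2.33-fold). In MZdgcr8 inppl1b ranked 3 from the lowest among 67 genes on this measure, while in wild type it ranked 32. These differences rest on 1 replicate 3 library per genotype and were not tested. The MZdgcr8 differences also use the libraries on which the genes were picked as high, which favours a lower replicate 3. Wild-type levels entered the same pick as the low side, which works against a lower replicate 3 in wild type. The contrast between the 2 orders is therefore not free of the pick.

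Over the whole table, the edgeR test of the replicate number with genotype in the model called 52.2% of the 67 genes. No p of that test is given for the phosphatase genes, since it compares libraries on which they were picked with replicate 3.

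The ratio of the paralogs was steady in replicates 1 and 2 of both genotypes and lay on opposite sides of them in replicate 3. On the FPKM scale, ptpn4b exceeded ptpn4a 1.40-fold and 1.20-fold in wild type replicates 1 and 2, and 1.24-fold and 1.22-fold in MZdgcr8 replicates 1 and 2. In wild type replicate 3 the ratio was 0.727, so that ptpn4a was the higher of the pair. In MZdgcr8 replicate 3 it was 2.60. These 2 replicate 3 values lie on either side of the other 4 libraries. The mean log2 ratio was 0.10 ± 0.50 in wild type and 0.66 ± 0.62 in MZdgcr8 (SD, n = 3 each), and the difference of 0.56 lay between the SDs of the genotypes. Without replicate 3 the difference was -0.074. The ratio does not depend on library depth, but how reads shared by these paralogs were assigned was not stated in the labels or headers, and each paralog's own level is uncertain.

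The summed level of the 3 genes depends less on how shared reads were split between the paralogs, but still on whether they were counted. The sum was higher in MZdgcr8 within each replicate number, which in replicates 1 and 2 follows from how the genes were picked. It was 12.3, 16.8 and 5.07 FPKM in wild type replicates 1, 2 and 3, and 39.0, 37.6 and 11.5 FPKM in MZdgcr8 replicates 1, 2 and 3. MZdgcr8 replicate 3 lay below wild type replicates 1 and 2, so the groups overlapped. Means were 11.4 ± 5.93 and 29.4 ± 15.5 FPKM (SD, n = 3 each). The MZdgcr8 sum was 3.17-fold, 2.23-fold and 2.28-fold that of wild type in replicates 1, 2 and 3. For the paralogs alone these values were 3.52, 2.32 and 3.09.

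The paralogs made up most of the sum in every library, and inppl1b the rest. Its share was 21.1%, 16.0% and 29.7% in wild type replicates 1, 2 and 3. In MZdgcr8 it was 12.5% and 12.8% in replicates 1 and 2 and 4.66% in replicate 3, below every wild-type library. Nothing is read from this order. Replicates 1 and 2 are those on which the genes were picked, and replicate 3 has 1 library per genotype. The share of ptpn4b was between 45.9% and 48.5% in the 4 libraries of replicates 1 and 2, with 29.6% in wild type replicate 3 and 68.9% in MZdgcr8 replicate 3. In wild type replicate 3 the order of levels was ptpn4a, inppl1b, ptpn4b, with inppl1b and ptpn4b at 1.51 and 1.50 FPKM. In the other 5 libraries it was ptpn4b, ptpn4a, inppl1b.

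**Figure D3:**
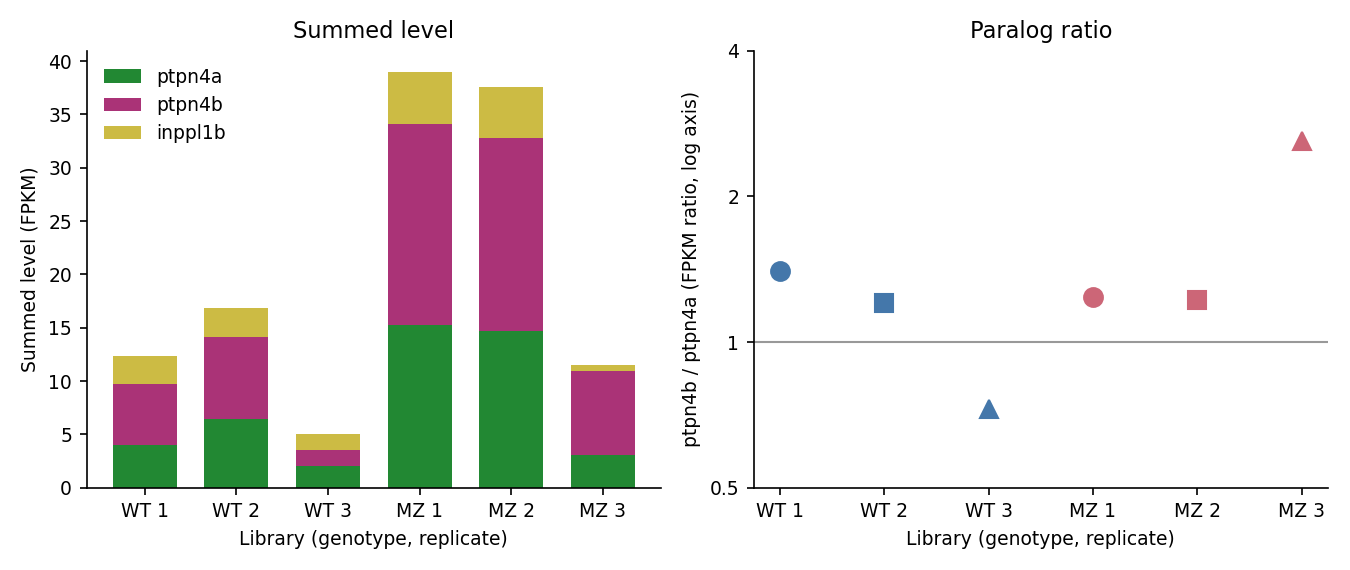
Left, summed FPKM of ptpn4a, ptpn4b and inppl1b in each library (WT, wild type; MZ, MZdgcr8), stacked by gene; right, FPKM ratio of ptpn4b to ptpn4a on a log axis with a line at 1. The sum is highest in MZdgcr8 replicates 1 and 2 (39.0 and 37.6 FPKM), and the ratio leaves the range of 1.20 to 1.40 only in the replicate 3 libraries, at 0.727 and 2.60.

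Among the tested genes the phosphatase genes were of low to middle level. In wild type, ptpn4a ranked between 46 and 57 from the highest of 67 genes, ptpn4b between 44 and 58 and inppl1b between 57 and 62. In MZdgcr8 replicates 1 and 2, ptpn4a ranked 36 and ptpn4b 34. In MZdgcr8 replicate 3, ptpn4b ranked 36, close to its place in the other MZdgcr8 libraries, while ptpn4a was at 52 and inppl1b at 63.

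Profiles over the 6 libraries were compared by the root mean square distance between log2(FPKM + 1) values centred on each gene's mean, as a description without a test. The paralogs were 0.42 apart, and 3 other genes were closer to ptpn4a than ptpn4b was. These were ell, an RNA polymerase II elongation factor gene (distance 0.26), dcaf8, which encodes a substrate receptor of cullin ubiquitin ligases (0.35), and the thyroid hormone receptor gene thraa (0.39). Near ptpn4b were dicer1, whose product cuts microRNA precursors (0.27), and ell (0.33). Closest to inppl1b were the orphan nuclear receptor gene nr4a1 (0.20), the metalloprotease gene adam8a (0.30) and the adaptor gene skap2 (0.33). The median distance over the other 66 genes was 0.82 from ptpn4a, 0.97 from ptpn4b and 0.56 from inppl1b.

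The nearest genes were chosen by closeness over these same libraries, so their likeness to the phosphatase genes is no separate result. Not all share its direction between genotypes within each replicate number. For skap2 the log2 difference was -0.13 and -0.12 in replicates 1 and 2, unlike inppl1b, and for thraa it was -0.52 in replicate 3, unlike ptpn4a. The other named genes had the sign of their phosphatase gene, though adam8a was only at 0.19 and 0.05 in replicates 1 and 2. Centred values of ell, dicer1 and nr4a1 were -0.70, 0.55 and -0.93 in MZdgcr8 replicate 3. In wild type replicate 3 they were -1.74, -1.72 and -0.37. In MZdgcr8 replicate 3, dicer1, nearest to ptpn4b, was at 26.0 FPKM against 35.5 and 33.2 FPKM in MZdgcr8 replicates 1 and 2. The level of ell, nearest to ptpn4a, was 11.1 FPKM against 49.2 and 52.0 FPKM. That of nr4a1, nearest to inppl1b, was 0.283 FPKM against 2.98 and 3.74 FPKM, and below the 0.893 FPKM of wild type replicate 3. The added 1 narrows the differences of low genes on this scale, so distances from inppl1b and from the paralogs are not directly comparable. The median distance was smaller from inppl1b. The nearest gene of inppl1b, nr4a1 (0.20), was also closer to it than ell was to ptpn4a (0.26) or dicer1 to ptpn4b (0.27). The part of the added 1 in this was not tested.

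**Figure D4:**
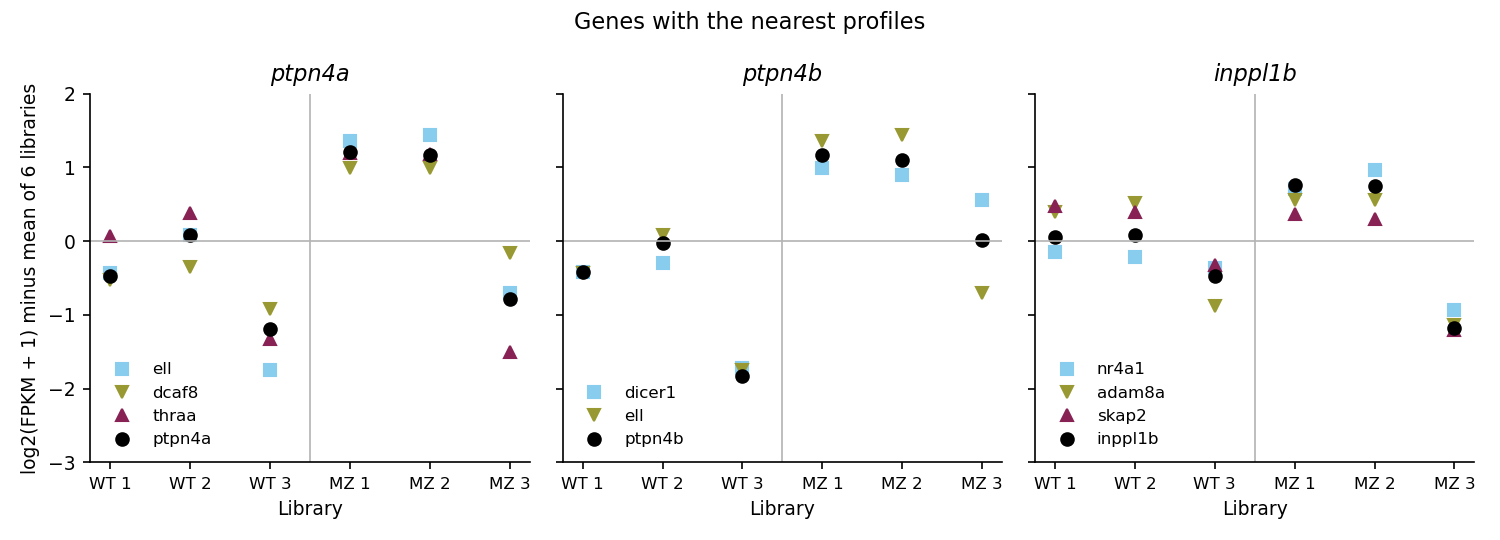
Log2(FPKM + 1) minus the gene's mean over 6 libraries for each phosphatase gene (black circles) and the genes named as near it (coloured), by library; the vertical line parts wild type (WT) from MZdgcr8 (MZ). In MZdgcr8 replicate 3, ptpn4b lies near its mean (0.01) while ptpn4a (-0.79) and inppl1b (-1.17) lie below theirs.

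Of the pathway lists, that of tyrosine and dual specificity phosphatases held 2 genes of the table, ptpn4a and ptpn4b, and that of inositol and phosphoinositide phosphatases held 1, inppl1b. The lists of phosphoinositide kinases and readers, of serine and threonine phosphatases and of further FERM domain proteins held 0. The last was drawn up from symbols and left out PTPN4 genes, which have such a domain. The microRNA pathway list held 1 of 14, dicer1, which was at 12.8, 14.0 and 4.57 FPKM in wild type replicates 1, 2 and 3, below its 3 MZdgcr8 values. None of these lists could be described beyond its named genes. In the edgeR fit without a block 0 of their genes were called in either direction. That fit called 0 of all 67 tested genes (0%), so nothing is read from this about the lists.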

How the data were processed

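Per the labels' protocols, each library was made from total RNA of 50 pooled embryos. The authors deposited FPKM and counts per gene and library, per the file headers. The submitters' processing notes name Bowtie 0.12.2, StringTie 1.3.0 and HISAT2 2.0, with no roles. The build they name, mm8, is a mouse build, while the identifiers are zebrafish ones; how this bears on the FPKM values is unknown, and no coordinates are printed. All 99 identifiers were matched in a table of gene names.

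Members and lists were chosen with earlier results of these data known. The rule named the 3 members, for each the 3 tested genes with the nearest profile, and list genes in the table; a gene that the rule names is left out here. Count totals of the 99 genes ran from 358811 to 576050 and are not depths, so relative depth was taken from the ratio of deposited counts to FPKM over 58 genes above 200 counts (largest deviation 0.0048, log2). Of 594 counts, 0 are 1, 2 or 3 and 33 are 0. A count may thus differ from a read, and no counting intervals are given. edgeR 4.0.16 (quasi-likelihood, R 4.3.3) was fitted to the 67 genes whose mean reached 1 FPKM. P-values were adjusted by Benjamini-Hochberg over those genes, with a threshold of 0.05. Each SE of a log2 difference was derived from the fit, as its absolute value divided by the square root of the quasi-likelihood F statistic. The fit with the replicate block and the replicate test were tried on simulated counts. The genotype fit without a block was not. The replicate test is an F-test of both replicate coefficients, given for the table as a whole. limma 3.58.1 on log2(FPKM + 1) and DESeq2 1.42.0 were alternatives.

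Sample titles give the replicate numbers. Over genes, the deviations of same-numbered libraries from their genotype mean correlated at 0.77, 0.76 and 0.80. Wild type replicate 2 and MZdgcr8 replicate 1 correlated at 0.82, and wild type replicate 1 and MZdgcr8 replicate 2 at 0.71. These values set replicate 3 apart but cannot tell how replicates 1 and 2 pair. Their pairing, used in the blocked fit and the differences within replicates, rests on the numbers alone. The labels do not say that replicates are separate clutches, and the spread behind the p-values may be technical.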

Additional observations from a re-analysis of the deposited data

How the results depend on the processing

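The genotype differences of the 3 phosphatase genes stayed positive under all 17 alternatives for each paralog and all 16 for inppl1b (mean of at least 5 FPKM removed that gene). Each of these includes mutant replicate 1 or 2, on which the genes were picked, so the sign was largely fixed in advance; in replicate 3 alone inppl1b was at -1.49. Log2 values ranged from 0.71 to 1.85 for ptpn4a, 1.01 to 2.06 for ptpn4b and 0.12 to 1.09 for inppl1b. With the replicate block they were 1.23, 1.78 and 0.14. The mean paralog ratio and sum differences (0.56 and 1.34) cannot change with the block, since each replicate number has 1 library per genotype. Genes called for genotype, 0 in edgeR, were 5 with the replicate block, 2 with RLE size factors, 0 to 3 when 1 library was left out (3 without MZdgcr8 replicate 3) and 43 without replicate 3 of both genotypes. The paralog ratio difference (log2 0.56) ran from 0.20 to 0.76 when 1 library was left out and was -0.074 without replicate 3; the summed level difference (log2 1.34) ran from 0.83 to 1.91. Genes called for replicate number were 35, 23 with RLE size factors, and 25 to 52 when 1 library was left out. The cause was not tested. Rescaling of replicate 3 was chosen after seeing the data.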
